A study of Mus musculus with 4 samples.

Results

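The livers of mice fed paramylon or cellulose in a high-fat diet were compared on a pair of expression arrays, 2 of the 4 arrays of the study. The PM group was given paramylon, a storage beta-1,3-glucan of the alga Euglena gracilis EOD-1, and the control group was given cellulose at 50 g/kg in the same kind of high-fat diet. PM was added in the amount that gave the same dietary fiber content. All animals were male C57BL/6J mice bought at 4 weeks of age, and none was fed a low-fat diet. The paper reports less retroperitoneal and epididymal fat in the PM group, so fatness was not the same in both groups. The mice were fed for 12 weeks and fasted before dissection. Liver RNA of 10 mice was mixed in equal parts for each group and hybridized to 1 array, which left 1 value per gene and group. The spread between mice is therefore not seen, no test was possible, and every difference below is a size with no p-value.

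A gene was counted when its probe carried exactly 1 gene symbol and when its level reached the median of all probes, a log2 value of 2.75, on at least 1 of the liver arrays. This rule was met by 13048 of 22180 genes (58.8%). Among the listed genes described below, Asns and Cyp2g1 lay just inside it at 2.75 on both arrays, and Mmp9 and Ctsw lay just outside it at 2.70. Only 162 genes were under the median on 1 array, 54 of them higher in the PM group and 108 higher in the control group. Gene names were then put into 22 lists of hepatocyte genes and 13 lists of immune genes. The hepatocyte lists hold genes active in hepatocytes, not only genes particular to them. The clock, heat shock, stress and antioxidant lists, for example, are of genes that other cells express too. Of 571 hepatocyte genes measured 546 reached the level, and of 398 immune genes 261 did. One member was in both classes (Cd36, a fatty acid and scavenger receptor, at 9.23 in the control group and 9.22 in the PM group) and was left out of both.

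Hepatocytes make up most of the mass of the liver. They secrete albumin and other plasma proteins, synthesize cholesterol and bile acids, and clear drugs and steroids with cytochromes P450. The liver also holds the largest store of resident macrophages, the Kupffer cells, which line the sinusoids and take up particles and microbial products arriving from the gut. Glucans of fungi and algae are bound by receptors of such myeloid cells, of which Clec7a (dectin-1) is the best known. When cytokines reach the hepatocyte, it secretes acute phase proteins such as serum amyloid A.

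The labelled tissue was borne out by its defining markers. Albumin (Alb) was at 12.96 on both arrays, transthyretin (Ttr) at 12.76, Cyp2e1 at 12.83 and fibrinogen beta (Fgb) at 12.18. The hepatocyte transcription factor Hnf4a was at 10.17 on both arrays, and the apolipoprotein gene Apoa1 at 11.58. The other 4 of the 10 defining markers differed by between -0.02 and 0.04 on the log2 scale (Ahsg, Apob, Cps1 and Serpina1a). Markers of other tissues were mostly under the level rule, with 3 of 19 measured pancreatic acinar genes, 6 of 20 intestinal genes and 6 of 15 muscle and gallbladder genes inside it. None of these 15 genes was higher in the PM group on the deposited scale. The summed linear level was 54.1 on both arrays for the acinar genes. For the intestinal genes, which include Apoa4 and Fabp2, it was 3144 in the control group and 2856 in the PM group. For the muscle and gallbladder genes it was 73.9 in the control group and 71.0 in the PM group. Adipocyte markers, the other list of a foreign tissue, went the other way: of 17 measured 11 reached the level, 7 of them higher and 0 lower, with summed levels of 6818 and 7189. The median log2 level was 4.66 for the intestinal and 5.42 for the adipocyte genes, so both sums rested on few members. Whether liver cells express those members was not tested, and the sums do not measure foreign tissue.

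The arrays of the PM group and the control group were very alike. Across the 13048 genes Pearson's r was 0.999, and 8766 genes (67.2%) had exactly the same value on both arrays. Genes are not independent replicates, and the coefficient only describes these 2 arrays. A tie of this kind limits what an unchanged value can show, and medians of gene lists are often 0 because of it, so means are given beside them. Of all genes, 2485 had a higher value in the PM group (19%) and 1797 a lower one (13.8%). These tallies hold for the deposited scale only. Quantile normalization of the 2 arrays to each other broke many ties and turned the balance, with 3879 genes higher and 6178 lower, while the numbers past the thresholds below stayed close (93 and 54). Following the thresholds of the study, genes with a fold above 1.3 (a log2 ratio above 0.38) were taken as upregulated and genes with a fold below 0.77 as downregulated. There were 94 upregulated genes (0.72%) and 54 downregulated genes (0.414%), and these shares are the background against which the counts below are read.

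**Figure D1:**
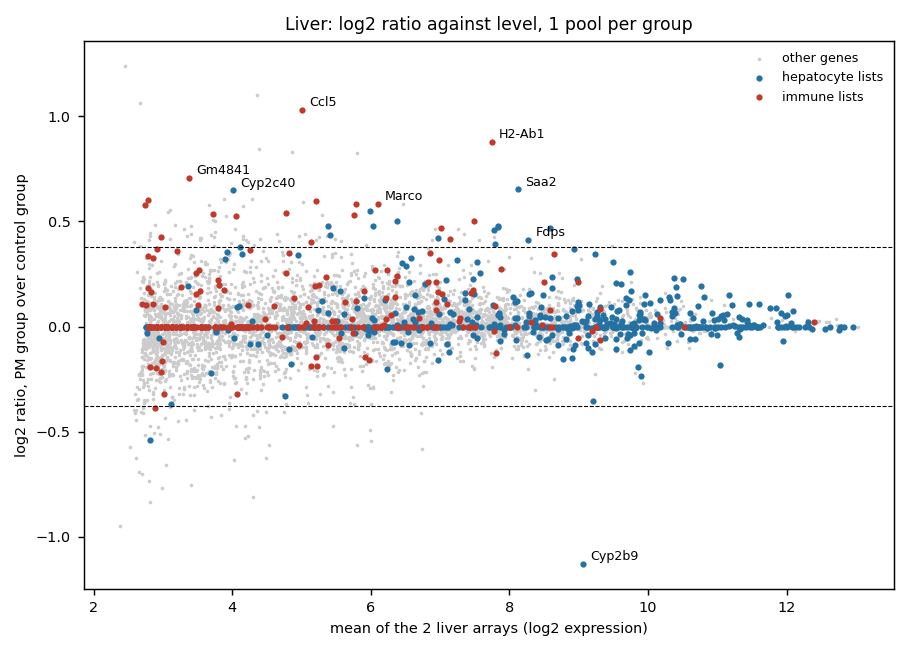
Log2 ratio, PM group over control group (vertical axis) against the mean log2 expression of the 2 liver arrays (horizontal axis), 1 point per gene; dashed lines mark folds of 1.3 and 0.77. Most points lie on 0. The red points of the immune lists above the upper line run from low levels up to H2-Ab1 at a mean of 7.74. Cyp2b9 at -1.13 is the single abundant gene below the lower line.

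The upregulated genes were the more abundant of the called genes. Of the 94, 84 were over the background level on both arrays (2.70, the level under which 95% of the 1400 probes of olfactory and vomeronasal receptors lay), and 16 were among the 10% of genes with the highest level. Of the 54 downregulated genes, 33 were over background on both arrays and 1, Cyp2b9, was in that top 10%. The receptor genes themselves, which the liver is not known to use, gave 3 upregulated (4.48%) and 2 downregulated genes (2.99%) among the 67 that reached the level, larger shares than among all genes. Their median level was 3.07. Below a level of 4, 2 of 51 receptor genes were upregulated (3.92%), so at low level an upregulated share of this size also came from genes of this kind.

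Immune genes were upregulated in a larger share than all genes, and almost all calls ran 1 way. The immune and hepatocyte lists were written with earlier results of these data known, so the shares of both classes are descriptions only. Of 261 immune genes 17 were above 1.3 (6.51%, against 0.72% of all genes) and 1 was below 0.77 (0.383%, against 0.414%). Of the 116 immune genes whose values differed at all, 79.3% were higher in the PM group, against 58.0% of the 4282 such genes overall. After quantile normalization 130 were higher and 71 lower. Their mean log2 ratio was 0.07, against 0.01 for all genes. Of the 11 immune genes under the median on 1 array, 9 were higher in the PM group, and such genes could enter the count only by differing. Among the 250 immune genes at or above the median on both arrays, 15 were above 1.3 (6.00%) and 0 below 0.77. In bulk tissue, more immune cells, more RNA per immune cell and RNA of the listed genes from other liver cells cannot be told apart.

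By the share above 1.3, the hepatocyte genes stood between the immune genes and the whole array. Of 546 members 14 were above 1.3 (2.56%) and 2 below 0.77 (0.366%), with a mean log2 ratio of 0.03. The mean was 0.01 after quantile normalization and 0.02 after removal of the trend with level. The 14 include Fabp4, which entered through the list of lipid droplet genes and is also in the endothelial and adipocyte lists. Of 328 members that differed, 66.2% were higher in the PM group, but after quantile normalization 199 were higher and 308 lower. Leaving out the 24 acute phase proteins, 10 of 522 hepatocyte genes were above 1.3 (1.92%) and the mean was 0.02. The order of these shares was the same in 3 of the 4 classes of level. Between log2 levels of 6 and 8, 10.5% of 57 immune genes, 4.27% of 117 hepatocyte genes and 0.632% of all 3166 genes were above 1.3. From 4 to 6 the shares were 6.94%, 4.05% and 0.803%, and from 8 upwards 5.26%, 1.89% and 0.600%. Below a level of 4, they were 4.42% of 113 immune genes, 0 of 37 hepatocyte genes and 0.740% of all genes, and the immune share was close to that of the receptor genes at this level.

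**Figure D2:**
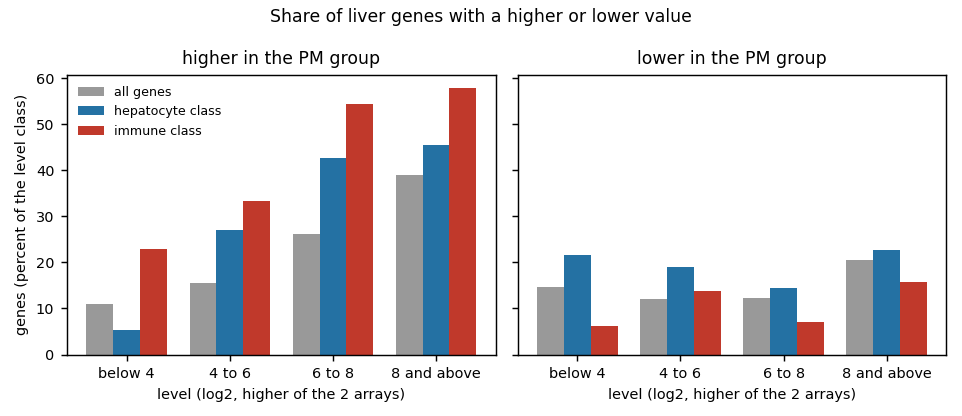
Percent of genes with a higher (left) or lower (right) log2 value on the deposited scale in the PM group than in the control group, by level class (log2, higher of the 2 liver arrays), for all genes (grey), hepatocyte genes (blue) and immune genes (red). At 6 to 8 the share with a higher value was 54.4% of immune genes, 42.7% of hepatocyte genes and 26.2% of all genes.

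Antigen presentation by MHC class II held the immune gene with the largest ratio among the 10% most abundant genes. H2-Ab1, the beta chain of the I-A molecule that displays peptides to CD4+ T cells, was at 7.31 in the control group and 8.18 in the PM group (log2 ratio 0.88, 1.84-fold). Its partner, the alpha chain H2-Aa, was at 5.50 and 6.08 (0.58). Cathepsin S (Ctss), the protease that trims the invariant chain in the same pathway, was at 7.24 and 7.74 (0.50, 1.42-fold). Both chains of I-A and the protease were thus higher in the PM pool. Of the 15 members of the list 7 were higher, 0 lower and 8 identical, with a mean of 0.17.

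The rest of the list did not move by the same size. H2-DMb2, a chain of the peptide exchange factor, was at 3.03 and 3.39 (0.36, under the threshold), and H2-Eb1, the I-E beta chain, at 6.14 and 6.28 (0.13). The class II transactivator Ciita was at 4.10 on both arrays and H2-DMa at 4.21 on both, 2 values picked out after they had been seen. Among 21 MHC class I genes only H2-Q1, a class Ib molecule, was above 1.3, from 5.49 to 6.03. Class I and class II genes have close relatives, and probes of a gene may read RNA of another member.

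To describe the class II list outside the arrays, promoters of RefSeq genes were searched (GRCm38.p6, 250 bases before to 50 after the start). The search on both strands was for the Y box in its form CTGATTGG, the element bound by NF-Y in class II promoters. This form was found in 3 of the 10 list members with a promoter entry (H2-Aa, H2-Eb1 and H2-Oa) and in 4.70% of 27025 genes. The 10 members include the regulators Rfx5 and Rfxank. H2-Ab1 has no entry and was not searched. The stretches from 120 bases before the start to 40 after it are given below for the upregulated H2-Aa and for H2-Eb1, which was not past the threshold; capitals mark the Y box.
H2-Aa (chr17:34287784-34287943, minus strand): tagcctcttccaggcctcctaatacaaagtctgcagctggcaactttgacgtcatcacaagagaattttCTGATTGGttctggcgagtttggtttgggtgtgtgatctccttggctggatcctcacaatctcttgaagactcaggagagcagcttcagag
H2-Eb1 (chr17:34305747-34305906, plus strand): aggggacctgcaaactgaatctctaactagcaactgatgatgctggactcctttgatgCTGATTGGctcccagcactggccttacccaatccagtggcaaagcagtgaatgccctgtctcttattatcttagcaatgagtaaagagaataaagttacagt
Both carry the same 8 letters, although the log2 ratios were 0.58 and 0.13.

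Macrophage genes were the next group. Of 30 Kupffer cell and resident macrophage markers 17 were higher in the PM group, 1 lower and 12 identical, with 3 above 1.3 and a mean of 0.12. The scavenger receptor Marco, which binds bacteria and particles, was at 5.81 in the control group and 6.40 in the PM group (0.59). The scavenger receptor Msr1 was at 4.93 and 5.34 (0.40, 1.32-fold), and Ctss, already named, was the other. All 3 were higher in the PM pool. The phosphatidylserine receptor Timd4 (4.64 and 4.99, 0.35), the complement receptor Vsig4 (6.82 and 7.14, 0.31), Axl (0.24), Cd68 (0.22) and the mannose receptor Mrc1 (0.18) were higher without passing the threshold.

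Some members of the list differed by 0.03 or less. Clec4f, a lectin particular to Kupffer cells in the mouse, was at 7.42 on both arrays. Folr2 was at 6.52 and C1qa at 6.07 on both, Cd5l at 7.26 and 7.28, and Adgre1, which encodes F4/80, at 5.43 and 5.46. These 5 were chosen after their values had been seen, and the list as a whole had more higher than lower members (17 and 8 after quantile normalization). The summed linear level of the 30 markers was 3141 in the control group and 3376 in the PM group. The part that cell number has in the values of Marco, Msr1 and Ctss was not tested.

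Of 22 monocyte and recruited macrophage markers 12 were higher, 1 lower and 9 identical, with a mean of 0.12. Of these, 18 were at or above the median on both arrays, and their mean was 0.08, with 9 higher, 0 lower and 1 above 1.3. Another 12 measured members did not reach the level. Gpnmb, a glycoprotein of lipid-loaded macrophages, was at 2.76 and 3.18, close to background. Lyz1 and Ms4a4c were under background in the control group and reached 3.09 and 3.03 in the PM group, at least 1.31-fold and 1.25-fold higher. All 3 calls of this list were therefore made at low signal. Mpeg1, the pore-forming perforin-2 of macrophages, belonged to no list but was among the 10 highest ratios of abundant genes, at 7.12 and 7.56 (0.44). Plek, Cd84 and Pilra, also myeloid genes outside the lists and picked after their values were seen, each had a log2 ratio of 0.44.

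**Figure D3:**
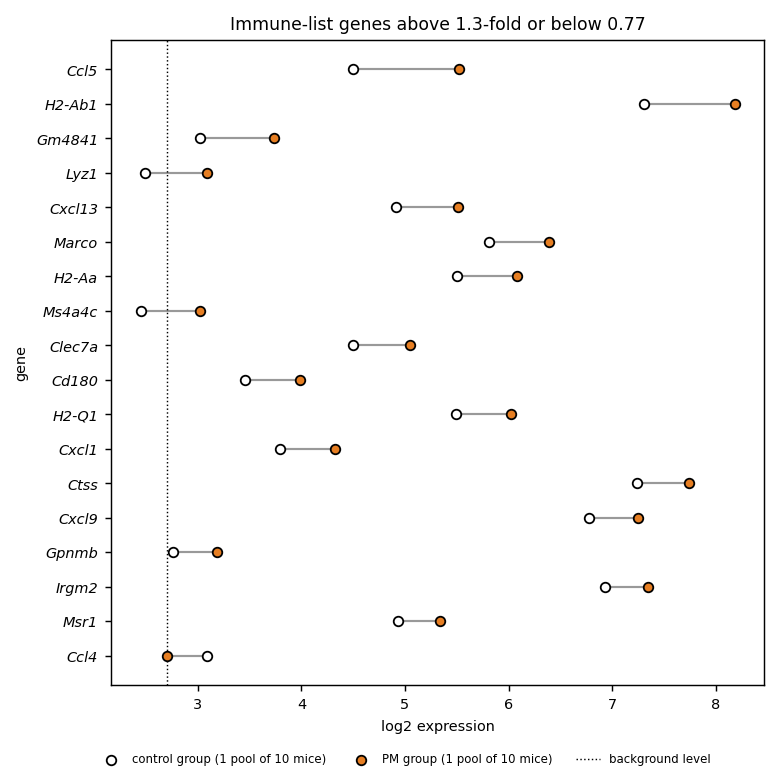
Log2 expression of the 18 immune-list genes past a threshold in the control pool (open circles) and the PM pool (orange circles), 1 array each; the dotted line is the background level of 2.70. H2-Ab1, Ctss, Irgm2 and Cxcl9 lie farthest from background, and Ccl4 is the single gene with a lower value in the PM group.

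Chemokine genes were mixed. Ccl5, which draws T cells and monocytes, had the largest ratio of any listed gene, at 4.49 in the control group and 5.53 in the PM group (1.03, 2.05-fold). The B cell attractant Cxcl13 was at 4.91 and 5.51 (0.60), the interferon-induced Cxcl9 at 6.78 and 7.25 (0.47), and the neutrophil attractant Cxcl1 at 3.80 and 4.32 (0.53). Ccl4 went the other way, from 3.09 to the background level, at least 1.31-fold lower. Ccl7 and the receptor Ccr7, both at -0.32, and Ccl2 at -0.16 were lower too but not past the threshold. Of the 34 members 6 were higher, 5 lower and 23 identical.

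Of 49 interferon-induced genes 3 were above 1.3, namely Gm4841, the chemokine gene Cxcl9 given above and Irgm2. Gm4841, an interferon-inducible GTPase-like gene, was at 3.03 and 3.73 (0.71, 1.63-fold), and Irgm2 was at 6.93 and 7.35 (0.42, 1.33-fold). Igtp (6.68 and 7.03) and the guanylate-binding protein Gbp10 (8.47 and 8.81), each with a ratio of 0.35, were under the threshold, as was the antiviral Rsad2 (0.37). Other members were level or lower: Irf7 was at 6.62 and Isg15 at 4.30 on both arrays, and Ifit1 was at 6.05 and 5.89, 3 genes taken after their values were seen. In the list 21 genes were higher, 6 lower and 22 identical. Many of these GTPases are near-identical copies, so a value may mix several genes.

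Of the genes for recognition of beta-glucan, Clec7a was upregulated, at 4.50 in the control pool and 5.04 in the PM pool (0.54, 1.46-fold). Of the 22 members 6 were higher, 2 lower and 14 identical. The signal adaptor Fcer1g (0.27), the cytokine Il18 (0.27) and the integrin Itgb2 (0.24) were higher without passing. The kinase Syk (3.45), the adaptor Card9 (3.02) and the receptor Tlr2 (3.61) had the same value on both arrays, all near background and chosen after being seen. No member of the cytokine list (27 genes) was past a threshold. Its highest ratio was that of the interleukin 1 receptor Il1r1, at 7.74 and 8.02 (0.28).

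Lymphocyte and neutrophil markers gave little signal in the liver. Of 34 measured T cell markers 17 reached the level, 3 of them higher, 3 lower and 11 identical. The highest were Lag3, at 2.74 and 3.11, and Cd3g, which was under background in the control group, whereas Cd3e and Cd4 had the same values on both arrays (3.56 and 3.75, both picked after being seen). Of 29 B and plasma cell markers 16 reached the level, and 1, Cd180, a toll-like receptor relative that myeloid cells also carry, was above 1.3 (3.45 and 3.99). Of 32 NK and cytotoxic cell markers 10 reached it, with Ccl5 above and Ccl4 below as the only calls. Of 23 neutrophil markers 5 did, with no call. The summed linear level was 192 and 191 for the T cell markers and 633 and 625 for the neutrophil markers. Only 1 neutrophil marker reached the 75th percentile of level, with a log2 ratio of -0.02. It carried most of the neutrophil sum, which therefore says little of the other markers. After quantile normalization or removal of the trend with level, 1 T cell marker was above 1.3. Dendritic cell markers (13 genes) had no call and a mean of -0.01.

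Genes of the other liver cells had 1 call. Among 30 sinusoidal endothelial markers Fabp4, a fatty acid-binding protein of endothelial cells and adipocytes, was the single upregulated gene, at 5.20 and 5.64, and 10 members were higher, 1 lower and 19 identical, with a mean of 0.04. After quantile normalization 11 were higher and 13 lower. None of 33 stellate cell and matrix genes, 11 cholangiocyte markers, 25 cell division genes and 8 erythroid and platelet genes was past a threshold. The 11 adipocyte markers had a mean of 0.10, with 7 higher and 0 lower. Fabp4 was the only call among them, and Pparg, the adipogenic nuclear receptor, was at 6.12 and 6.37 (0.25). Whether fat tissue or endothelium contributes to the value of Fabp4 was not tested.

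**Figure D4:**
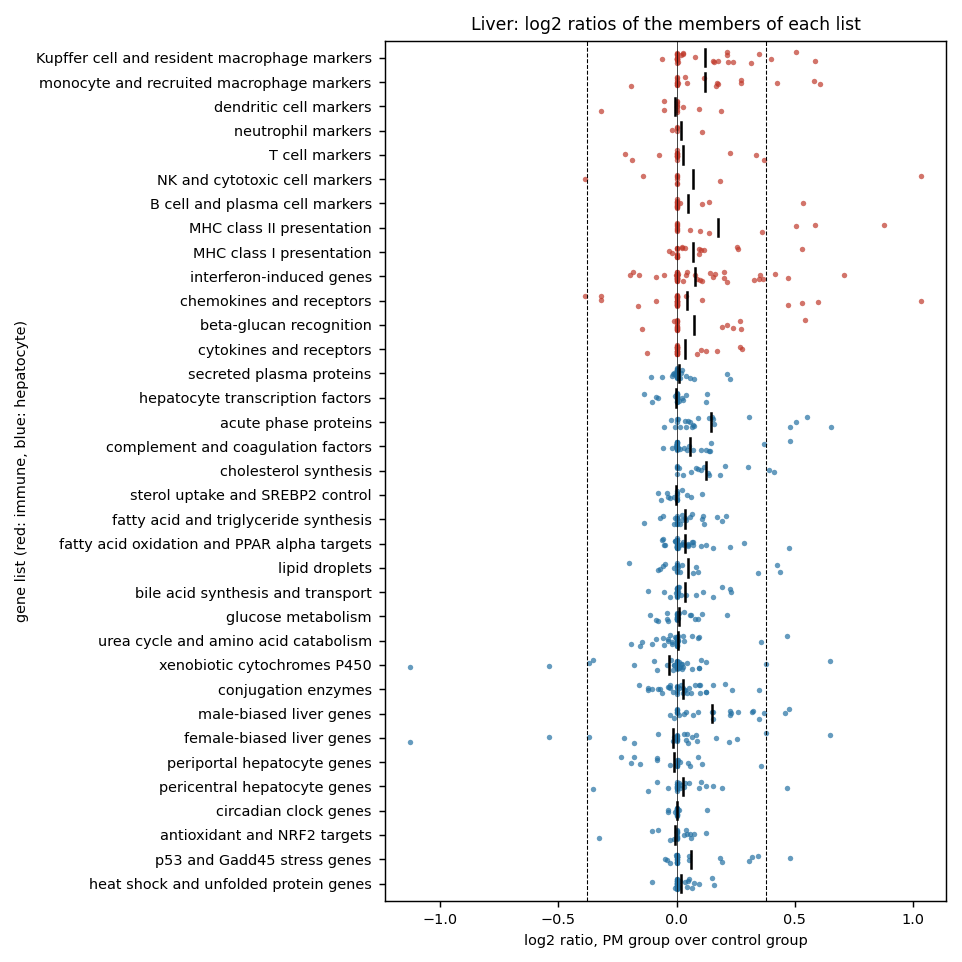
Log2 ratio, PM group over control group (horizontal axis) for each member of the 13 immune lists (red) and 22 hepatocyte lists (blue), 1 point per gene with vertical jitter; black bars are list means and dashed lines mark folds of 1.3 and 0.77. The list means are highest for MHC class II presentation (0.17), male-biased liver genes and acute phase proteins (both 0.15), and lowest for xenobiotic cytochromes P450 (-0.03).

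Among the hepatocyte lists, the acute phase proteins had the most upregulated members, 4 of 24, and 19 of the 24 were higher. Serum amyloid Saa2, a major reactant of mouse plasma, was at 7.80 in the control group and 8.45 in the PM group (0.65, 1.57-fold). Saa3, which macrophages also make, was at 5.72 and 6.27 (0.55, 1.47-fold). The acid glycoprotein Orm2 was at 6.13 and 6.64 (0.50) and lipocalin-2 (Lcn2), which sequesters bacterial siderophores, at 5.79 and 6.27 (0.48). Saa2 was among the 10% most abundant genes, and Saa3, Orm2 and Lcn2 lay at middle levels. The most abundant reactants differed little: haptoglobin (Hp) was at 11.98 and 11.99, Fga at 11.37 on both arrays, Itih4 at 11.34 and 11.37 and Orm1 at 9.52 and 9.59, all named after their values were seen. The median of the list was 0.07 beside its mean of 0.15.

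Complement and coagulation genes had 1 call. Cfhr2, a factor H-related gene, was at 7.59 and 8.07 (0.48, 1.39-fold), and C6, a subunit of the membrane attack complex, was at 8.74 and 9.11 (0.37, just under the threshold). Its partners C8a and C9 both had a ratio of 0.14. Of 30 members 13 were higher and 4 lower, against 12 and 16 after quantile normalization. Of the 38 secreted plasma proteins, 10 were higher, 8 lower and 20 identical, with no call and a mean of 0.01.

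Of 18 genes of cholesterol synthesis 14 were higher and 0 lower, with a median of 0.10, and after quantile normalization 13 were higher and 4 lower. The called genes were Fdps, which makes farnesyl diphosphate, at 8.06 and 8.48, and Cyp51, the lanosterol demethylase, at 7.59 and 7.98. Cyp51 fell under the threshold when the arrays were quantile-normalized or the trend with level was removed. Hmgcs1, the synthase at the head of the pathway, was at 9.61 and 9.75 (0.13). Of 17 genes of sterol uptake and control of the pathway 4 were higher and 6 lower, with no call. They ran from Srebf2, its transcription factor, at 6.89 and 6.81 (-0.08), to Insig1, a sterol-sensing retention protein with a log2 ratio of 0.11.

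The promoter of Cyp51 is shown as an example of this list, since all 15 members with a RefSeq promoter entry held the letters CCAAT on either strand, against 41.1% of all 27025 genes. Fdps has no entry. The sterol element in the form TCACNCCAC was found in 1 of the 15, Hmgcs1, and in 1.44% of all genes. Capitals mark the CCAAT letters, which the Y box CTGATTGG also holds on its opposite strand, so the searches overlap. A match describes these letters only.
Cyp51 (chr5:4104648-4104947, minus strand): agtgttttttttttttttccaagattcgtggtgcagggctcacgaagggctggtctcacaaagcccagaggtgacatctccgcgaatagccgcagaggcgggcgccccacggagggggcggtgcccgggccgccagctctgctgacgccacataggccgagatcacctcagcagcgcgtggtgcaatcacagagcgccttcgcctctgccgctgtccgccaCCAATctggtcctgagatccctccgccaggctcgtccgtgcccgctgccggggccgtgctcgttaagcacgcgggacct

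Fatty acid genes were close to level. Of 43 genes of fatty acid oxidation and targets of PPARα, the fatty acid sensor of the liver, 19 were higher, 7 lower and 17 identical, with a mean of 0.04 and 1 call, Cyp4a12a. After quantile normalization 15 were higher and 28 lower. The receptor itself, Ppara, was at 9.08 and 9.11, Cpt1a, the gate of mitochondrial fatty acid uptake, at 10.85 and 10.84, and Fabp1 at 11.91 on both arrays. By PCR, the paper reports significantly higher PPARα mRNA in the livers of the PM group. That measure has a spread between mice, which 1 pool per group lacks. Fasn was at 9.21 and 9.25, Scd1 at 11.98 and 11.91 and Dgat1 at 5.63 on both. None of the 26 genes of fatty acid and triglyceride synthesis was past a threshold, with 13 higher, 5 lower and a mean of 0.03 (12 and 12 after quantile normalization). The lowest was their transcription factor Srebf1, at 8.31 and 8.18, and the highest was the phosphatidate phosphatase Lpin1, at 9.44 and 9.64. Of 22 lipid droplet genes, Plin5, which ties droplets to mitochondria, was at 6.75 and 7.17 (0.42, 1.34-fold), and Fabp4 was the other call. Cidea was at 4.78 and 5.12 (0.34). Among 24 genes of bile acid synthesis and transport none passed, with Cyp7a1, the rate-limiting enzyme, at 10.31 and 10.50.

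The largest downregulation belonged to a cytochrome P450. Cyp2b9, a steroid- and drug-metabolizing enzyme more abundant in female than male mouse liver, was at 9.62 in the control group and 8.49 in the PM group (-1.13, a fold of 0.458). Its relative Cyp2b13 was at 3.08 in the control group and under background in the PM group, at least 1.301-fold lower. Cyp3a11, the chief drug-oxidizing P450 of the mouse, was at 9.38 and 9.02 (-0.35), and Cyp3a44 was at 3.31 and 2.94 (-0.37), both just short of 0.77. Cyp2c40 went the other way, at 3.69 and 4.34 (0.65, 1.57-fold), as did Cyp2c69 (3.93 and 4.31, just under the threshold). Of 38 xenobiotic P450 genes 15 were higher, 13 lower and 10 identical on the deposited scale. After quantile normalization 13 were higher and 24 lower, so the balance depended on the scaling. No call was made among 37 conjugation enzymes.

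Cyp2b9 and Cyp2b13 both lie on chromosome 7, and their promoters are given to show how alike they are: 298 of 300 positions (99.3%) were identical, without gaps. Capitals mark the 2 positions that differ.
Cyp2b9 (chr7:26173159-26173458, plus strand): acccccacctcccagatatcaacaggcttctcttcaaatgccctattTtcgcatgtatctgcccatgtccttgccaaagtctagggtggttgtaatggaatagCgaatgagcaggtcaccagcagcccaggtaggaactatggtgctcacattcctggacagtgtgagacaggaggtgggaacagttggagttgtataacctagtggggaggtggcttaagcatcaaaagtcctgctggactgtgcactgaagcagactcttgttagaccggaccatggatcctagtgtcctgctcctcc
Cyp2b13 (chr7:26061245-26061544, plus strand): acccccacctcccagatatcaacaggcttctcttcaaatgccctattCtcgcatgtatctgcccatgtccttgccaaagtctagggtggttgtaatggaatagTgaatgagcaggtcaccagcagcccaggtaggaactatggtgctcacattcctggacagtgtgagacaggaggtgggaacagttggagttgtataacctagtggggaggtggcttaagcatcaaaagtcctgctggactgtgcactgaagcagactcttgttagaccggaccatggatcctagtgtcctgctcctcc
These stretches lie mostly before the transcribed part, so their likeness does not show whether a probe reads the RNA of both genes. Whether the lower value of Cyp2b13 was separate from that of Cyp2b9 was not tested.

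**Figure D5:**
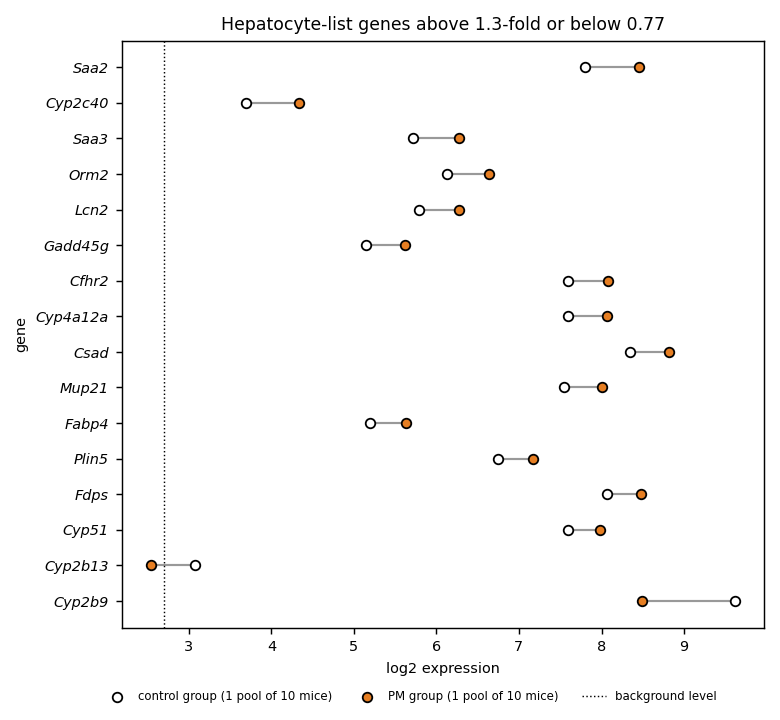
Log2 expression of the 16 hepatocyte-list genes past a threshold in the control pool (open circles) and the PM pool (orange circles), 1 array each; the dotted line is the background level of 2.70. The 14 upregulated genes moved by 0.39 to 0.65, less than the -1.13 of Cyp2b9.

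Genes known to differ between male and female liver, a pattern set by growth hormone pulses, were examined because Cyp2b9 is one of them. Of 26 male-biased genes 19 were higher in the PM group, 2 lower and 5 identical, with a mean of 0.15 and a median of 0.12. Cyp4a12a, an arachidonic acid hydroxylase, was at 7.60 and 8.07 (0.47, 1.39-fold), and the major urinary protein gene Mup21 was at 7.54 and 8.002 (0.46, 1.38-fold). The transporter Slco1a1 (10.26 and 10.49), Hsd3b5 (7.09 and 7.41), Bcl6 (6.42 and 6.74) and Cyp7b1 (8.86 and 9.08) were higher by 0.23 to 0.32. Elovl3 at 9.69, Selenbp2 at 9.50 and Mup3 at 12.79, picked after their values were seen, were the same on both arrays. Of 28 female-biased genes 12 were higher, 8 lower and 8 identical, with a mean of -0.02. The female-biased list thus held both Cyp2b9 and Cyp2c40, the lowest and one of the highest P450 values. Mup and Cyp4a12 genes are families of near-identical copies, and which copy a probe read is uncertain.

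The remaining hepatocyte lists had few calls. Csad, which makes the taurine precursor used to conjugate bile acids, was at 8.35 and 8.81 (0.47, 1.38-fold), the 1 call among 36 genes of the urea cycle and amino acid catabolism. In that list 11 genes were higher and 14 lower, with histidase (Hal, 9.95 and 9.75) among the lower. Gadd45g, induced by stress and growth arrest, was at 5.14 and 5.62 (0.48), and its relative Gadd45b at 3.96 and 4.31 (0.34). No gene was past a threshold among 29 genes of glucose metabolism, 20 clock genes, 22 antioxidant and NRF2 targets, 37 heat shock and unfolded protein genes, 21 periportal genes and 26 hepatocyte transcription factors. The antioxidant enzymes Sod1 (11.10 and 11.16) and Gpx1 (11.30 and 11.27) and the bile acid receptor Nr1h4 (8.97 on both arrays) were among these. By PCR, the paper reports significantly higher SOD mRNA in the PM liver. It found no significant difference there in the other genes measured, apart from PPARα. In the clock list 15 of 20 genes were identical.

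Genes outside every list made up 63 of the upregulated and 51 of the downregulated genes, shares of 0.520% and 0.421% of 12122. The highest were mostly pseudogenes and small RNAs: 2610005L07Rik was at 3.81 and 4.91, Gm10335 at 3.97 and 4.81, Snord72 at 4.45 and 5.28 and Snord42b at 5.38 and 6.21. Gm5150 and Rbx1-ps were under background in the control group and at least 1.302-fold and 1.421-fold higher in the PM group. Of the lowest, 2 were over background on both arrays with ratios past -0.7, Olfr1269 (4.70 and 3.89) and Calm5 (3.78 and 3.03). Others, such as Mir3098, Xlr3c, Cypt1 and Defa22, were under background in the PM group. Of the abundant genes on the lower side, Tlcd2, Rgs16, Arrdc3 and Gldc had ratios of -0.25 to -0.20. The probes of Erdr1, also abundant, had ratios of -0.37 (8.84 and 8.47) and -0.23 (8.21 and 7.97). These genes were not past the threshold.

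The ileum arrays of the same animals gave a second tissue. There 15 of 288 immune genes at or above the ileum median were above 1.3 (5.21%, against 0.506% of all 13035 genes) and 4 were below 0.77 (1.39%, against 0.898%). Ileum genes as a whole were more often below (117) than above (66). Of the 94 genes upregulated in the liver, 6 were upregulated in the ileum as well and 46 were identical on its arrays. The 6 were Ccl5 (7.41 and 8.05 in the ileum), Cxcl9 (6.43 and 7.23), Saa3 (5.81 and 7.41), Gpnmb (4.58 and 5.85), the lipoprotein-associated phospholipase Pla2g7 (5.23 and 5.84) and Rbx1-ps. Of the 54 downregulated genes, Apol7b and Nat8f7 were downregulated in both tissues. H2-Ab1 was at 11.13 and 11.35 in the ileum and Marco at 4.14 on both ileum arrays, so neither was past the threshold there. The difference between the tissues was not tested, with 1 array per tissue and group.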

How the data were processed

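Liver RNA, 1 pool of 10 mice for each diet group, was hybridized to Affymetrix mouse gene arrays. The values deposited by the authors are on the log2 scale and come from robust multichip analysis with Affymetrix Expression Console 1.3 (submitters' processing notes). The set of arrays normalized jointly is not given in the sources that were read. Precision is limited by the number of arrays. Of 41345 probes, 23521 carried 1 gene symbol in the platform annotation, 1820 several and 16004 none here, and probes of a gene were averaged.

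The log2 value of the control group was subtracted from that of the PM group with Python 3.11.15, numpy 2.4.6, pandas 2.3.3 and scipy 1.17.1. Trends were fitted with statsmodels 0.14.6 and figures drawn with matplotlib 3.10.9. A value at or under background (2.70) on 1 array gave a lower bound on the fold against that level. No test was made, since each group was 1 array. The calculation of ratios and counts was tested on simulated data.

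Named genes were the 15 highest and 15 lowest ratios, the 10 highest and 10 lowest among the 10% most abundant genes, all list members past a threshold with up to 4 more per list, defining hepatocyte markers, and genes of the liver PCR panel. The members, the lists (44 in all, written from general knowledge) and the rule were chosen with earlier results of these data known. Of 652 hepatocyte and 456 immune genes written, 81 and 58 were not found under 1 symbol. Alternatives changed the threshold, the level filter, the choice of probe, the scaling and the treatment of ties and low values. Promoters were taken from RefSeq (GRCm38.p6). PCR, serum and liver lipid data were not analysed here.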

Additional observations from a re-analysis of the deposited data

Results flagged for a closer look

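Among genes at or above the median in both tissues, 2 were past the thresholds in opposite directions in the liver and the ileum. Slc7a8, a transporter of neutral amino acids, had a log2 ratio of 0.59 in the liver (4.72 in the control group and 5.32 in the PM group) and of -0.44 in the ileum (9.31 and 8.88). The pseudogene Gm11983 had a ratio of -0.47 in the liver (4.42 and 3.95) and of 0.44 in the ileum (4.16 and 4.60). The difference between the tissues was not tested, since each group was 1 array.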

How the results depend on the processing

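No paired analysis was possible because each group was 1 array, and for the same reason no array could be left out. With a threshold of 1.5-fold, 17 genes were upregulated and 13 downregulated, of which 2 and 1 were hepatocyte genes and 6 and 0 immune genes. At 2-fold the numbers were 4 and 1, with 0 and 1 hepatocyte genes and 1 and 0 immune genes. With no filter on level, 94 genes and 2 immune genes were below 0.77, and the immune mean was 0.04711. At the 75th percentile of level, 47 genes were above and 8 below, with 1 hepatocyte gene below, 11 immune genes above and 0 below, and an immune mean of 0.1025. Requiring a level over background on both arrays left 33 genes, 1 hepatocyte gene and 0 immune genes below 0.77, and an immune mean of 0.06411. A level at or above the median on both arrays, added after seeing the data, left 31, 1 and 0 below and an immune mean of 0.06377. The hepatocyte and immune means were 0.01368 and 0.06442 after quantile normalization, 0.02424 and 0.06369 after centring, and 0.05002 and 0.1564 with identical values left out. Removal of the trend with level (lowess) gave a hepatocyte mean of 0.01766 and 0 immune genes below 0.77. Without acute phase proteins, an alternative added after seeing the data, the hepatocyte mean was 0.02471. Neither mean changed sign under these settings, but at 2-fold the hepatocyte calls turned from more above to more below. Of 58 named genes past a threshold, 57 kept their call after quantile normalization (Cyp51 lost it), 56 after lowess (Cyp51 and Ccl4 lost it), and 52 when values below background were raised to it, an alternative also added after seeing the data (Mir3098, Gm4553, Olfr884, 1700001J11Rik, Nlrp5 and Ms4a4c lost it). The cause of these losses was not tested.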

Other observations

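Small nucleolar RNA genes, which guide chemical modification of ribosomal RNA, were more often higher than lower in the PM liver. Of 63 at or above the level, 38 were higher, 9 lower, 4 above 1.3 and 0 below 0.77, with a mean log2 ratio of 0.11. Snord72 and Snord42b each had a ratio of 0.83, Snord111 was at 6.16 in the control group and 6.75 in the PM group, and Snord69 was at 7.56 and 7.99. These genes were looked at after the values were seen.

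Probes without a gene name carried most of the calls on the liver arrays. Of 6443 unnamed probes that reached the array median, 834 were above 1.3 and 874 below 0.77 (26.5%), and 29.0% had the same value on both arrays. Of 13786 probes with 1 symbol, 103 and 61 were past the thresholds (1.19%) and 68.3% were identical. Of 992 probes with several symbols, 17 and 7 were past them (2.42%).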
